A study of Rattus norvegicus with 44 samples.

Results

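Heat shock protein and DnaJ genes encode molecular chaperones, which bind unfolded or newly made proteins, and the co-chaperones that direct them. Their levels were examined in CA1 and the dentate gyrus (DG), 2 subregions of the rat hippocampus. Members were the rows named Hspa, Hspb, Hsp90 or Dnaja, Dnajb and Dnajc with a number, and Hspd1, Hspe1 and Hsph1, kept where 6 or more libraries of the region had 10 or more normalized reads. Of 68 such symbols, 62 reached that level in CA1 and 62 in DG, among 14915 and 14904 genes that did. Dnajc22, Dnajc5b, Hspa1l, Hspb3, Hspb7 and Hspb9 were below it in both regions, and their highest value in any library was 21.9 normalized reads, for Dnajc22 in DG. Hspa1b was not analysed here.

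Polyadenylated RNA came from 22 male rats, with 1 hippocampus of each divided into CA1 and DG, which gave 44 libraries. The 8 young vehicle rats (5 to 7 months) had saline and the 8 young LPS rats (5 to 7 months) had lipopolysaccharide, a bacterial endotoxin, at 1 mg per kg. The 6 aged vehicle rats (14 to 16 months) had saline. Injections were intraperitoneal and weekly for 7 weeks in all 3 groups, and the brains were collected 48 hours after the seventh. No aged rat had LPS. The design therefore gives 3 comparisons in each region: LPS in young rats, age under saline, and young LPS against aged vehicle. The strain is not given in the sources used here.

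Chaperones work in linked systems. Hsp70 proteins (Hspa genes) bind exposed stretches of a protein, DnaJ proteins deliver substrates and trigger ATP hydrolysis, and Hsp110 proteins (Hspa4, Hspa4l and Hsph1) release the nucleotide. Hsp90 matures kinases and receptors, small heat shock proteins (Hspb genes) hold unfolded proteins, and Hspd1 with Hspe1 forms the folding chamber of mitochondria. In neurons, Hspa8 with the DnaJ proteins Dnajc5 and Dnajc6 serves synaptic vesicle release and the uncoating of clathrin. Heat shock factors switch many of these genes on through heat shock elements, and the unfolded protein response does so for those of the endoplasmic reticulum (ER).

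Such elements are written in the promoters of several genes described here, which is why the stretches below are shown. Promoters from RefSeq (build GRCr8) were matched for 50 of the 62 members and searched on both strands over the 250 bases before the start of the gene. Hsp90aa1 was among the members without a match, so its promoter was not searched. A pair of inverted units, GAANNTTC, stood in 12 of the 50 and in 7.23% of 33469 promoters. A run of 3 alternating units (GAA, 2 bases, TTC, 2 bases, then GAA again) stood in 4, Hspa8, Hsph1, Hspd1 and Hspe1, and in 0.663% of all promoters. Every such run also holds the pair. A match describes letters in this window and is no evidence of binding. The matches are in capitals, each line running 5′ to 3′ on the gene's strand.
Hspa8, chr8:50080281-50080491, plus strand: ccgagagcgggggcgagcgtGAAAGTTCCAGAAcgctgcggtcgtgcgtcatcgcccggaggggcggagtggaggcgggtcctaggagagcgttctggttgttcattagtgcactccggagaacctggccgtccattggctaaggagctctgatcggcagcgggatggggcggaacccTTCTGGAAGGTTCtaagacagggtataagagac
Hsph1, chr12:10427312-10427364, plus strand: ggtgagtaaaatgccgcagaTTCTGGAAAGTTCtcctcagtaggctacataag
Hspd1, chr9:64084242-64084287, minus strand: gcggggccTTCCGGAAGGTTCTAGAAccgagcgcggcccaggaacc
Hspe1, chr9:64084242-64084299, plus strand: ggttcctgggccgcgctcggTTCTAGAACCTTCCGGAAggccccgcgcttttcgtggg
Hspd1 and Hspe1 lie head to head, and their capitals mark the same bases read from opposite strands. The ER stress response element (CCAAT, 9 bases, then CCACG) stood in the promoters of Hspa5, Hsp90b1 and Dnajc3, which encode ER chaperones, and in 0.0657% of all promoters.
Hspa5, chr3:38452953-38453011, plus strand: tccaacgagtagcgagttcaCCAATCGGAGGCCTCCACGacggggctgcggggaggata
Hsp90b1, chr7:23012327-23012489, minus strand: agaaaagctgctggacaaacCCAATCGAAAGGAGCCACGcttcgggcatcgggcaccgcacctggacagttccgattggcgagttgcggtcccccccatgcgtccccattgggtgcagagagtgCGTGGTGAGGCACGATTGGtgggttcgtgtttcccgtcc
Dnajc3, chr15:102432514-102432572, plus strand: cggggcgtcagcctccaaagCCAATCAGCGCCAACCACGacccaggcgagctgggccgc

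The libraries held 12292346 to 18749663 recovered reads in CA1 and 12130182 to 23519791 in DG, and the members took between 0.54% and 0.759% of them. Values are normalized reads, which are not corrected for gene length, so levels are compared between libraries and not between genes. Nothing in the labels ties libraries to an extraction batch. The CA1 library of aged rat 2532 stood apart. Among the 22 CA1 libraries it was the highest for 21 members and the lowest for 20, together 66.1% of members beside 59% of all genes, and its DG library was neither for any member. Its share of ribosomal protein reads was 0.534%, where the young groups ran from 0.817% to 1.40% in CA1, and its summed pan-neuronal markers reached 160000 normalized reads, where the young groups ran from 46700 to 73600. The main limma counts and named changes in CA1 that use aged rats are therefore given with and without it. The counts of edgeR, DESeq2 and the other alternatives include it, except where rats were left out. CA1 pyramidal markers summed to at least 24700 in every CA1 library and to at most 16300 in every DG library, and dentate granule markers to at least 7120 in every DG library and at most 7360 in every CA1 library. In whole tissue, fewer cells of a type and less RNA per cell cannot be told apart.

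LPS in young rats left 0 of the 62 members past the threshold in either region by limma, at a Benjamini-Hochberg adjusted p of 0.05 over all genes tested. The background was 0% of all genes called in CA1 and 0.0134% in DG. At an unadjusted p below 0.05 stood 3 members in CA1 (4.84%, beside 6.87% of all genes) and 7 in DG (11.3%, beside 7.53%). With 1 rat left out, the CA1 count ran from 2 (3.23%, beside 4.65% of all genes), without 2527, to 13 (21.0%, beside 13.2%). The 13 stood without 2532, which is in neither group but enters the shared spread. The CA1 count was 5 (8.06%) without 2523 or 2573, beside 11.4% and 9.73%, and 6 (9.68%) without 2403 or 2571, beside 8.33% and 6.59%. It was 7 (11.3%, beside 7.90%) without 2717 and 9 (14.5%, beside 10.2%) without 2547. The DG count ran from 4 (6.45%, beside 5.98% to 6.66%), without 2408, 2573 or 2722, to 12 (19.4%), without 2527 or 2547. Beside the 12 stood 9.95% of all genes without 2527 and 8.03% without 2547. The members' median log2 change, young LPS minus young vehicle, was -0.053 in CA1 and 0.032 in DG, beside 0.012 and -0.0041 over all genes. In DG, 0 members had groups that did not overlap, beside 0.0403% of all genes. edgeR and DESeq2 on the recovered reads also called 0 members in both regions, beside 0% and 0.00671% of all genes in CA1 and 0.0134% and 0.0201% in DG.

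Among the Hsp70 genes, Hspa8, the constitutive Hsp70 of neurons, had the smallest p of any member for LPS in DG. It ran from 89.4 to 156 normalized reads in DG of young vehicle rats, with a median of 119.6. In young LPS rats it ran from 35.7 to 132, with a median of 54.2. 7 of the 8 LPS libraries lay below the vehicle median and 1, rat 2404, lay above it, so the groups overlapped. The log2 change was -0.91 (SE 0.22, 95% interval -1.36 to -0.47, limma unadjusted p = 0.000268, adjusted p = 0.515). Aged vehicle rats ran from 74.1 to 119 in DG, all between the medians of the young groups.

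Hspa8 was also lower on average with LPS in CA1. Vehicle libraries ran from 50.7 to 102 normalized reads with a median of 77.9, and LPS libraries from 30.5 to 90.8 with a median of 42.9. The log2 change was -0.55 (SE 0.23, limma unadjusted p = 0.0227, adjusted p = 0.654). 6 of 8 LPS libraries lay below the vehicle median and the ranges overlapped widely. The difference between the regions was 0.37, CA1 minus DG (95% interval -0.37 to 1.10, limma adjusted p = 0.625). RefSeq lists 33 pseudogenes of Hspa8, the most of any member, and how the deposited counts treated reads that match several places is not given in the sources used here. These low values may therefore not hold the whole output of Hspa8, and the part of the pseudogenes was not tested.

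**Figure D1:**
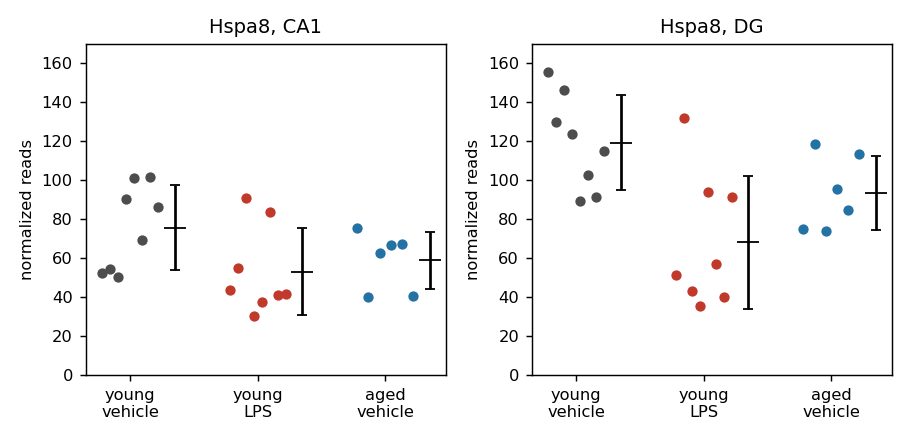
Normalized reads of Hspa8 in each library of CA1 and DG by group; points are libraries and the bar to the right of each group is its mean with SD (n = 8, 8 and 6). In DG the young LPS libraries run from 35.7 to 132 and the young vehicle libraries from 89.4 to 156, so the groups overlap.

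The stress-inducible Hspa1a did not stand among the members at an unadjusted p below 0.05 for LPS. In DG it ran from 225 to 410 normalized reads in vehicle rats and from 122 to 325 in LPS rats. In CA1 the ranges were 73.7 to 215 and 113 to 254. Hspa5, the main Hsp70 of the ER, ran from 4277 to 6687 in CA1 of vehicle rats and from 4084 to 5505 in LPS rats, and Hspa9, its mitochondrial counterpart, from 1531 to 2293 and from 1581 to 2331. Hspa2, known for its role in germ cells, ran from 487 to 767 and from 427 to 832 in CA1. Hspa14, a ribosome-associated Hsp70, ran from 232 to 323 and from 230 to 347. Dnajb1, the stress-inducible DnaJ partner of Hsp70, ran from 921 to 1429 and from 1049 to 1551 in CA1, with a log2 change of 0.098 (SE 0.1), and from 752 to 1151 and from 750 to 1080 in DG, with -0.054 (SE 0.085). In each of these pairs the ranges of the groups overlapped.

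The ER chaperone genes Hsp90b1 and Hspa13 were lower on average with LPS in CA1 and higher in DG. Hspa5 did not share this split, with log2 changes of -0.099 in CA1 and -0.025 in DG. Hsp90b1, the Hsp90 of the ER, ran from 4852 to 6479 normalized reads in CA1 of vehicle rats and from 3982 to 5506 in LPS rats. The CA1 log2 change was -0.22 (SE 0.084, limma unadjusted p = 0.0158, adjusted p = 0.654). In DG it ran from 4421 to 5604 in vehicle and from 4675 to 6660 in LPS rats, a change of 0.18 (SE 0.077, limma unadjusted p = 0.025, adjusted p = 0.598). 7 of 8 LPS libraries lay below the vehicle median in CA1 and 7 of 8 above it in DG. Hspa13, a microsomal Hsp70-like protein, had a change of -0.24 in CA1 and 0.19 in DG. Its DG libraries ran from 861 to 1041 in vehicle and from 952 to 1363 in LPS rats, where 8 of 8 lay above the vehicle median. Dnajb11, an ER partner of Hspa5, had the smallest p for LPS in CA1. It ran from 656 to 929 in vehicle and from 538 to 740 in LPS rats, a change of -0.28 (SE 0.09, limma unadjusted p = 0.0053, adjusted p = 0.654). In DG its change was 0.028 (SE 0.097).

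Dnaja1, Hspd1, Hspe1 and Dnajc2 also had a lower average with LPS in CA1 and a higher one in DG. Dnaja1, a main DnaJ partner of Hspa8, ran from 1620 to 2555 normalized reads in DG of vehicle rats and from 1856 to 2772 in LPS rats, a log2 change of 0.28 (SE 0.095, limma unadjusted p = 0.00632, adjusted p = 0.523). In CA1 it was -0.20 (SE 0.2). Hspd1, the large subunit of the mitochondrial chamber, ran from 1215 to 1872 in vehicle and from 1296 to 2425 in LPS rats in DG, a change of 0.28 (SE 0.11, limma unadjusted p = 0.017, adjusted p = 0.565). In CA1 it was -0.27 (SE 0.17). Its partner Hspe1 ran from 90.7 to 159 in vehicle and from 105 to 231 in LPS rats in DG, and from 147 to 277 and from 104 to 225 in CA1. Dnajc2, which works at the ribosome, had changes of -0.27 in CA1 and 0.26 in DG. In DG the LPS change was 0.25 (SE 0.17) for Hspe1 and 0.090 (SE 0.071) for Hsph1, and neither passed. The part of the long heat shock element in the changes of Hspa8, Hsph1, Hspd1 and Hspe1 was not tested.

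Whether the LPS effect differed between the regions was tested within each rat, as CA1 minus DG. By limma 0 of 62 members passed (lowest adjusted p = 0.351), beside 0.00683% of all 14637 genes tested. At an unadjusted p below 0.05 stood 15 members (24.2%), beside 13.0% of all genes. With 1 rat left out that count ran from 8 to 21 (33.9%, beside 19.6%, without 2523). The 8 (12.9%) stood beside 8.69% without 2410 and 8.97% without 2543. Without 2404 the count was 9 (14.5%, beside 8.51%). The difference was negative in 12 of the 15 and positive in 3. The average was lower with LPS in CA1 and higher in DG for 31 members, the reverse held for 17, and 14 had 1 sign in both regions. These joint splits by sign were not counted over all genes, so no background stands beside them. In each region alone, the LPS change was negative for 37 of 62 members in CA1, beside 7129 of 14915 genes. It was positive for 39 of 62 in DG, beside 7270 of 14904 genes. Hsp90b1 had the smallest p, with a difference of -0.40 (95% interval -0.65 to -0.15, unadjusted p = 0.0031). Next came Hspa13 at -0.42 (95% interval -0.72 to -0.13), Dnajc2 at -0.53 (-0.91 to -0.15) and Dnajc24, which takes part in diphthamide synthesis, at -0.75 (-1.29 to -0.20). The small heat shock genes Hspb1 and Hspb2 had positive differences, 0.90 (0.067 to 1.73) and 1.19 (0.062 to 2.32). Hspb2 was low, between 0 and 29.1 normalized reads over all libraries, and had the highest LPS change of any member in CA1, 0.51 (SE 0.48). In CA1 its median was 6.0, and it reached 10 normalized reads in 6 libraries, the fewest that the filter allows.

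**Figure D2:**
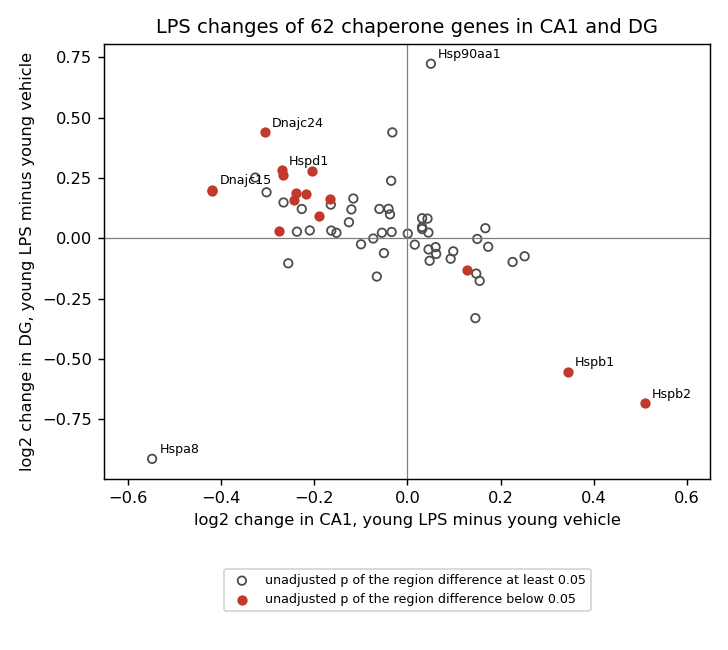
Log2 change for young LPS minus young vehicle in CA1 (x axis) and DG (y axis) for each of the 62 members; filled points have an unadjusted limma p below 0.05 for the difference between the regions. At the upper left lie 31 members, lower on average with LPS in CA1 and higher in DG, and Hspa8 lies at the lower left with -0.55 and -0.91. The same split was not counted over all genes.

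The cell markers stood as follows in the young groups. In CA1, the medians of the summed pan-neuronal markers (4 of 4 with a row) were 61900 normalized reads in vehicle (51500 to 73600) and 55700 in LPS rats (46700 to 68900). Those of the CA1 pyramidal markers (8 of 8) were 35300 (26400 to 44300) and 40700 (32200 to 58000). The oligodendrocyte markers (5 of 5) had 124000 (85800 to 168000) and 138000 (95500 to 210000), and the endothelial ones (4 of 5) 2700 (2080 to 4180) and 3120 (2720 to 4800). The dentate granule markers (8 of 8) had 5270 (4020 to 6590) and 4720 (1730 to 7360). The microglial ones (5 of 5) had 3280 (2890 to 5320) and 3730 (3090 to 5100). The astrocyte ones (5 of 5) had 48600 (40800 to 59000) and 51400 (48400 to 63800), and the mural ones (5 of 5) 1670 (1440 to 2630) and 1960 (1600 to 2210). In CA1 the LPS median was thus lower for pan-neuronal and dentate granule markers. It was higher for the other lists shown, and all ranges overlapped. In DG, the pan-neuronal medians were 65500 (54100 to 79800) and 68400 (61600 to 92500), and the pyramidal ones 4440 (1620 to 14200) and 5960 (1430 to 11100). The microglial medians (5 of 5) were 2740 (2300 to 4150) and 2740 (2560 to 2860). Their part in the chaperone values was not tested, beyond a fit with a score of CA1 against dentate markers as a term. In that fit the change of Hspa8 was -0.37 in CA1 and -0.95 in DG.

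Age under saline also left 0 members past the limma threshold in either region, beside 0.0134% of all genes in CA1 and 0.0134% in DG. At an unadjusted p below 0.05 stood 8 members in CA1 (12.9%, beside 12.6% of all genes) and 0 in DG (0%, beside 2.99%). edgeR and DESeq2 called 0 members too, beside 0.0134% and 0.0469% of all genes in CA1 and 0.0134% and 0.0268% in DG. The difference of the age effect between regions passed for 0 members, beside 0% of all genes, and had an unadjusted p below 0.05 for 1 (Dnajc10, 1.61% of members beside 5.21% of all genes). That count was 1 without rat 2532 (1.61%, beside 1.99%) and ran from 0 to 4 with 1 rat left out. It was 3 (4.84%) without 2411 or 2412, beside 8.74% and 8.46%, and 4 (6.45%, beside 10.1%) without 2526. Without rat 2532 the CA1 count at an unadjusted p below 0.05 went from 8 to 3 (4.84%, beside 6.07% of all genes), and 0 members passed, beside 0.0134%. With each rat left out in turn that count ran from 2 (3.23%, beside 8.11%), without 2523, to 15 (24.2%, beside 20.1%), without 2411. It was 5 (8.06%) without 2415, 2572 or 2731, beside 9.63% to 12.3%, and 14 (22.6%, beside 13.3%) without 2410. It was 2 (3.23%) without rats 2532 and 2572 together, and the share of all genes in that fit is not given here. The CA1 library of young vehicle rat 2572 had 15.8% mitochondrial reads, the most of any CA1 library.

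In CA1 the smallest p for age was that of Dnajc10, an ER disulfide reductase. Its aged libraries ran from 1465 to 4094 normalized reads with a median of 1761, and the young vehicle libraries from 1113 to 1727 with a median of 1494. The change, aged minus young vehicle, was 0.42 (SE 0.17, limma unadjusted p = 0.0217, adjusted p = 0.393) and 0.21 without rat 2532. Hspe1 ran from 40.8 to 174 in aged and from 147 to 277 in young vehicle rats, a change of -0.60 and -0.28 without that rat. Hspa4l had 0.39 and 0.19 without it, Hspa12a, an atypical Hsp70, 0.25 and 0.14, and Dnajb9, an ER DnaJ protein, 0.52 and 0.20. Each of these 5 changes kept its sign and became smaller.

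In DG the smallest p for age belonged to Hspa1a. It ran from 193 to 314 normalized reads in aged and from 225 to 410 in the young ones given saline, with -0.34 as the log2 change (SE 0.19, limma unadjusted p = 0.0822, adjusted p = 1.00). 6 of 6 aged libraries lay below the young median. Dnajb6, which suppresses protein aggregation, ran from 557 to 615 in aged and from 485 to 595 in young vehicle rats, a change of 0.15 (SE 0.089). Hspb8, a small heat shock protein that acts in selective autophagy, had 0.20 (SE 0.13), and Dnajb2, a neuronal DnaJ protein, 0.16 (SE 0.1). The highest age change in DG was that of Hspb1, 0.31 (SE 0.42), which ran from 36.4 to 65.5 in aged and from 22.2 to 106 in young vehicle rats, and the lowest was that of Hsp90aa1, -0.39 (SE 0.56). Dnajc5, the cysteine string protein of synaptic vesicles, ran from 1134 to 1316 in aged and from 992 to 1307 in young vehicle rats. Dnajc6, the neuronal auxilin, ran from 6141 to 7308 and from 5714 to 7689. The aged ranges overlapped the young ones for each of these genes. The CA1 pyramidal markers in DG had a median sum of 10600 in aged rats (1830 to 16300) and 4440 in young vehicle rats (1620 to 14200). Beyond the fit with the score of CA1 against dentate markers, their part in these changes was not tested.

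Young LPS against aged vehicle was the comparison in which members passed. In CA1, 9 of 62 members were lower in young LPS rats by limma and 0 were higher, beside 8.73% of all genes called in either direction and 5.24% called lower. At an unadjusted p below 0.05 stood 28 members (45.2%, beside 35.8%). The groups did not overlap for 1 member, Hsp90b1, beside 0.838% of all genes. Adjusted p-values of the 9 ran from 0.0490 to 0.0492, just under the threshold. The members' median log2 change was -0.061, beside 0.022 over all genes. Without rat 2532, 0 members passed, beside 0% of all genes, and 21 had an unadjusted p below 0.05 (33.9%, beside 24.6%). Without it the median was -0.075, beside 0.0073, and the groups did not overlap for Hsp90b1 alone, beside 0.999% of all genes. In DG 0 members passed, beside 0.0134% of all genes, and 11 had an unadjusted p below 0.05 (17.7%, beside 9.10%). That DG count ran from 5 (8.06%, beside 6.64%), without 2415, to 13 (21.0%, beside 10.9%), without 2527. edgeR and DESeq2 called 0 members in DG, beside 0.00671% and 0.148% of all genes. This comparison shares the LPS libraries with the LPS comparison and the aged ones with the age comparison.

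The 9 genes were the 3 Hsp110 genes, 4 of the ER, Hspd1 and Dnajc24. Hspa5, also of the ER, was not among them, and in CA1 ran from 4084 to 5505 normalized reads in LPS and from 3665 to 5973 in aged rats. In CA1, Hspa4 ran from 2508 to 3631 normalized reads in LPS and from 3549 to 8044 in aged rats, a change, LPS minus aged, of -0.52 (SE 0.15) and -0.35 without rat 2532. Hspa4l ran from 687 to 1340 and from 1104 to 3096, with -0.56 (SE 0.17) and -0.35 without it. Hsph1 ran from 3433 to 4841 and from 4464 to 7205, with -0.34 (SE 0.11) and -0.25 without it. For each of these 3 nucleotide exchange factors, 8 of 8 LPS libraries lay below the aged median.

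Of the ER members, Hsp90b1 ran from 3982 to 5506 normalized reads in LPS and from 5609 to 6316 in aged rats, with a change of -0.34 (SE 0.091), which was -0.34 without rat 2532 as well. Hspa13 had -0.56 (SE 0.14) and -0.42 without that rat. Dnajc10 had -0.66 (SE 0.17) and -0.45, and Dnajb9 had -0.94 (SE 0.27) and -0.62. Dnajb9 reached 1358 in rat 2532, where the other aged rats had at most 421. Hspd1 ran from 864 to 2071 and from 1482 to 3067, with -0.59 (SE 0.18) and -0.46, and 7 of 8 LPS libraries lay below the aged median. Dnajc24 ran from 29.5 to 54.3 and from 49.3 to 102, with -0.71 (SE 0.21) and -0.59. Each of the 9 kept its sign without rat 2532. None passed the threshold without it, with adjusted p from 0.119 to 0.135, and unadjusted p-values ran from 0.00111 to 0.0148. Beside these values, the CA1 pan-neuronal markers had a median sum of 55700 in LPS rats (46700 to 68900) and 66900 in aged rats (58100 to 160000, the highest in rat 2532). The endothelial markers had 3120 (2720 to 4800) and 2660 (2100 to 2880), the pyramidal ones 40700 (32200 to 58000) and 32900 (24700 to 59100), and the oligodendrocyte ones 138000 (95500 to 210000) and 115000 (94300 to 155000). The part of these cell types in the 9 changes was not tested.

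**Figure D3:**
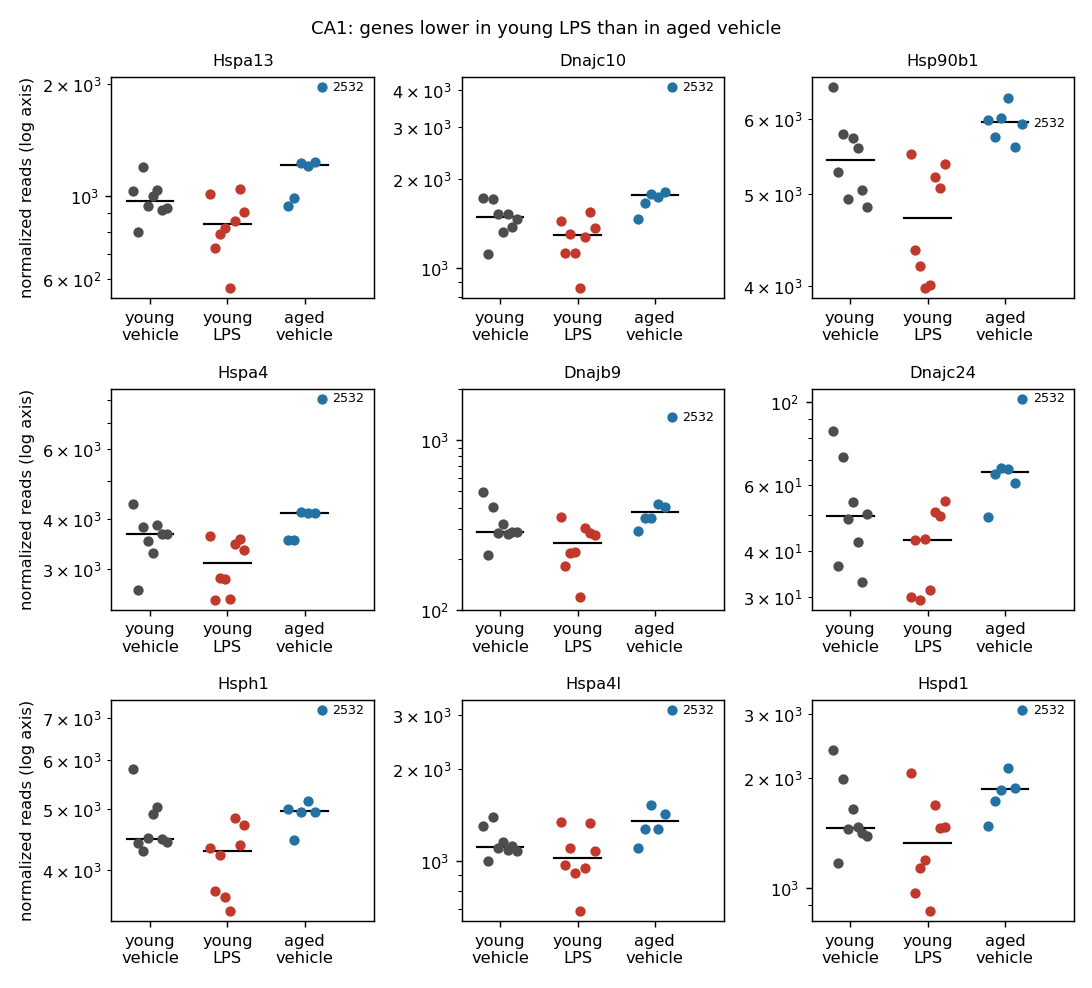
Normalized reads in CA1 (log axis) of the 9 members that were lower in young LPS than in aged vehicle rats, by library; points are libraries, the line is the group's median and aged rat 2532 is named. That rat is the highest library in 8 of the 9 panels, all but Hsp90b1, whose LPS libraries (3982 to 5506) all lie under its aged libraries (5609 to 6316).

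The count of 9 moved with single libraries, as the bars for each rat left out show. It ran from 0 to 19. It was 0 without any 1 of 15 rats: 2410, 2526, 2571, 2722, 2728 and 2731 (young vehicle), 2404, 2408, 2527, 2543 and 2717 (LPS), and 2415, 2420, 2531 and 2532 (aged). It was 14 without 2403, 19 without 2411, 8 without 2412, 13 without 2523 and 11 without 2547, 2572 or 2573. With the 2 groups alone in the fit it was 0, with adjusted p from 0.0914 (Hspa13, Dnajc10) to 0.0952 (Hspa4l) for these genes. edgeR called 12 members, all lower, beside 14.4% of all genes, and DESeq2 called 16, of which 15 were lower, beside 22.8%. Both of these fits include rat 2532. Shares of all genes called are given here only for all 22 libraries, without rat 2532, and for edgeR and DESeq2. The other counts stand without that background, so they cannot be told from moves in the calls over all genes. At an unadjusted p below 0.05 the members ran from 21 (33.9%, beside 24.6% of all genes), without 2532, to 33 (53.2%, beside 40.6%), without 2411.

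**Figure D4:**
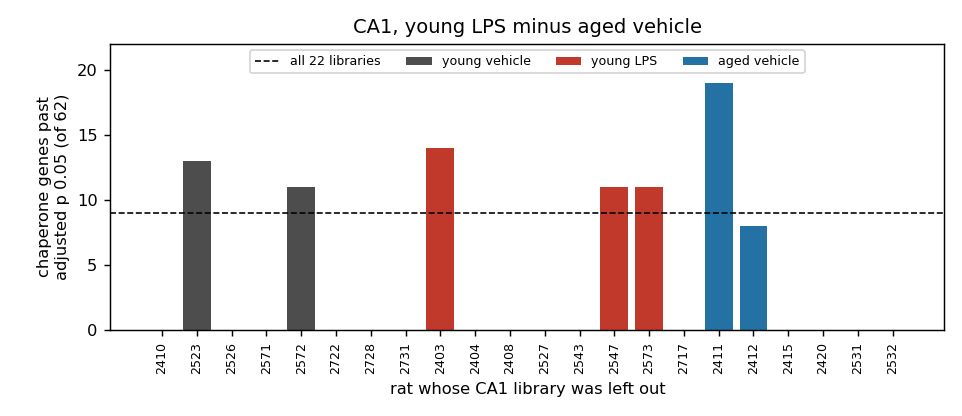
Number of the 62 members past an adjusted limma p of 0.05 in CA1, young LPS minus aged vehicle, when the library of 1 rat is left out; bars are coloured by the rat's group and the dashed line marks the count of 9 with all 22 libraries. For 15 rats the bar is at 0, and the highest bar is 19, without aged rat 2411. The share of all genes called is not shown.

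In DG the members with the smallest p for LPS against aged were Hspb8 and Dnajb2. Hspb8 ran from 188 to 236 normalized reads in LPS and from 220 to 322 in aged rats, a change of -0.38 (SE 0.13, limma unadjusted p = 0.00591, adjusted p = 0.359). 8 of 8 LPS libraries lay below the aged median. Dnajb2 ran from 874 to 1371 and from 1188 to 1730, with -0.26 (SE 0.1), and Dnajc21, a ribosome assembly factor, from 163 to 303 and from 146 to 203, with 0.34 (SE 0.14). Hspb1, the small heat shock protein Hsp27, ran from 4.86 to 61.6 and from 36.4 to 65.5, with -0.86 (SE 0.42), which was -0.53 without rat 2547. Dnajc2 had 0.32 (SE 0.13). Hspb6, a small heat shock protein of muscle, ran from 251 to 427 and from 286 to 404. The CA1 pyramidal markers in DG had a median sum of 5960 in LPS rats (1430 to 11100) and 10600 in aged rats (1830 to 16300). Beyond the fit with the score of CA1 against dentate markers, their part in these changes was not tested.

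Hsp90aa1, the inducible cytosolic Hsp90, varied widely within groups. In CA1 it ran from 591 to 8147 normalized reads in young vehicle, from 590 to 3424 in LPS and from 59.8 to 1423 in aged rats. In DG it ran from 367 to 5641, from 1174 to 9773 and from 810 to 4521. Its LPS change was 0.05 in CA1 (95% interval -1.19 to 1.29) and 0.72 in DG (-0.35 to 1.80), and its age change in CA1 was -1.22, or -0.51 without rat 2532. For LPS against aged it was 1.27 in CA1, or 0.56 without that rat, and 1.11 in DG. None of these passed. The constitutive Hsp90ab1 ran from 26119 to 37170 in young vehicle, from 27026 to 31795 in LPS and from 27544 to 30229 in aged rats in CA1. RefSeq lists 14 pseudogenes of Hsp90aa1, 22 of Hsp90ab1 and 20 of Hspd1.

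**Figure D5:**
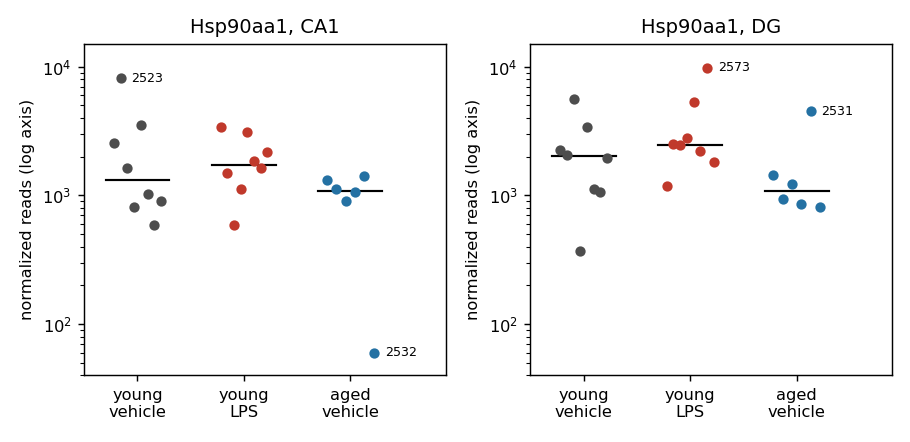
Normalized reads of Hsp90aa1 (log axis) in each library of CA1 and DG by group; points are libraries, the line is the group's median, and rats 2523 and 2532 are named in CA1 and 2531 and 2573 in DG. The CA1 values run from 59.8 to 8147 and the DG values from 367 to 9773, with the groups overlapping in both regions.

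The rest of the chaperone network was taken from lists of co-chaperones and stress genes. For LPS and for age, 0 genes of these lists passed in either region, and in DG 0 passed for LPS against aged. In CA1, for LPS against aged, 4 of 19 Hsp90 and Hsp70 co-chaperones were lower, Cacybp, Cdc37l1, Ptges3 and Tomm70. 2 of 8 subunits of the cytosolic chaperonin, Cct2 and Cct8, and 1 of 19 ER stress genes, Canx, were lower. These shares stand beside 8.73% of all genes called, 5.24% lower. None of the list genes was higher, and 0 of 3 heat shock factors and 0 of 11 nucleotide exchange and Bag genes passed. Tomm70, an import receptor of mitochondria, averaged 320 normalized reads in LPS and 646 in aged rats, and Canx, the ER lectin chaperone calnexin, 4951 and 8124. Without rat 2532 the aged averages were 467 and 6359, and each of the 7 genes kept its sign but missed the limma threshold, with adjusted p from 0.119 to 0.124. These genes were chosen for mention after their values were seen. For LPS in DG, Stub1, the ubiquitin ligase that acts on chaperone clients, had the smallest p among genes of the lists that are no member, with a change of -0.29 (SE 0.085, limma adjusted p = 0.515).

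Across the 22 rats, Hsph1 was compared with Hsp90aa1, Dnajb1, Hspa8, Hspb1 and Hspa5 within each region on the log2 scale, which gave 10 relations. None passed after Benjamini-Hochberg adjustment. The strongest was with Hspb1 in CA1, r = -0.54 (permutation p = 0.0149, adjusted p = 0.149) and Spearman's rho = -0.51 (permutation p = 0.02, adjusted p = 0.1). Without rats 2532 and 2410, the farthest from the median of Hsph1, r was -0.46. It was -0.59 within the 8 rats numbered from 24 and -0.37 within the 10 numbered from 25. The levels of 6 members in CA1 and DG of the same rat were also compared, and 0 of these 6 relations passed. For Hsp90aa1 r was 0.34 (permutation p = 0.132, adjusted p = 0.487) and rho 0.43 (permutation p = 0.0586, adjusted p = 0.341). It was 0.34 without rats 2532 and 2523, -0.64 within the rats numbered from 24 and 0.60 within those from 25.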

How the data were processed

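RNA was measured in 44 libraries from CA1 and DG of 22 rats, grouped by their labels. For each region the authors deposited normalized counts in 1 table, a signal that is never negative. Per the submitters' processing notes, the tools were STAR, Partek and DESeq2 and the build rn6, without versions or roles. The annotation and the handling of strand and of multiple matches are not stated there. Nearly all values of each library are whole multiples of the value of 1 read. Dividing by it turned 99.748% of CA1 values and 99.9757% of DG values into whole reads (within 0.1), and every value of the member rows. A fraction stood in 240 rows of CA1 and 11 of DG, and was rounded for edgeR and DESeq2. The tables were normalized separately, so tests ran within a region or on CA1 minus DG within a rat. Columns of no labelled sample numbered 0.

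Genes that reached 10 normalized reads in 6 or more libraries were tested with limma 3.58.1 (R 4.3.3; trend and robust options) on log2(value + 1), with 3 groups in 1 fit and Benjamini-Hochberg adjustment over all genes at 0.05. A log2 change on this scale understates that of low genes. The labels give both regions of a rat 1 number. The correlation between the deviations of a rat's 2 libraries had a median of 0.0513, above 0.1 in 8 of 22 rats. For 1 of the 22 rats the CA1 library correlated best with the DG library of the same rat. The pairing in the tests within a rat thus rests on the labels. No replicate pair within a group agreed within counting noise. Correlations used 100000 permutations.

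The alternatives were pseudocounts of 5 and 0.25, no filter, a mean filter of 50, TMM scaling, the number series of the rats (24, 25 or 27), a dissection score, 2 groups only, edgeR 4.0.16, DESeq2 1.42.0 and each rat left out. Leaving out rats 2532 and 2572 together was chosen after seeing the data. The procedure was tested on simulated data. Log2 changes are given for members past the threshold, the 4 smallest p, and the highest and lowest change of each comparison; members of a preset list are given by levels or changes in at least 1 comparison. Changes of other members are named beside the region difference. Members, lists and the rule for named genes were chosen with earlier results of these data known. Depth intervals would cover counting error only. p-values measure the spread between rats.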

Additional observations from a re-analysis of the deposited data

Results flagged for a closer look

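In 150 groups of 6 to 8 libraries (25 members, 3 groups, 2 regions), 22 had a highest or lowest library that stood farther from the rest than Dixon's limit allows. Chance gives about 1 in 20, or 7.5, though members of 1 library share that library. 10 of the 22 were the CA1 library of aged rat 2532. In normalized reads, it was high for Dnaja1 at 6929 (next 2377), Dnajb9 at 1358 (next 421), Hspa12a at 9604 (next 6434), Hspa13 at 1963 (next 1237), Hspa14 at 429 (next 311), Hspa4 at 8044 (next 4165), Hspa4l at 3096 (next 1520) and Hsph1 at 7205 (next 5161). It was low for Dnajc5 at 513 (next 860) and Hspe1 at 40.8 (next 140). Its DG library had none.

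Elsewhere in CA1, these libraries stood apart, each with its normalized reads. Hspa2 was low at 427 in young LPS rat 2403, where the next library had 645. Hspb8 was high at 445 in young LPS rat 2404, where the next library had 299. Hsp90aa1 was high at 8147 in young vehicle rat 2523, where the next library had 3492. Hspa9 was low at 1531 in young vehicle rat 2523, where the next library had 1960.

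Elsewhere in DG, these libraries stood apart, each with its normalized reads. Hsp90aa1 was high at 4521 in aged vehicle rat 2531, where the next library had 1442. Hsp90ab1 was high at 44655 in young LPS rat 2543, where the next library had 32946. Hspa13 was high at 1363 in young LPS rat 2573, where the next library had 1140. Hspa5 was high at 6389 in young LPS rat 2573, where the next library had 5463. Hsph1 was low at 4582 in young LPS rat 2527, where the next library had 5220. Hspa4l was low at 975 in young vehicle rat 2722, where the next library had 1207. Hspa9 was low at 1292 in young vehicle rat 2526, where the next library had 1900. Hspb8 was high at 376 in young vehicle rat 2526, where the next library had 261.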

How the results depend on the processing

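The counts of members past the threshold for LPS, for age and for LPS against aged in DG were 0 under every alternative run, as were both counts for the difference between regions. With no replicate block the region difference of the LPS effect also had 0 members called, and 16 in place of 15 at an unadjusted p below 0.05, so the block changed no call. For LPS against aged in CA1 the count of 9 became 0 with no filter, 0 with 2 groups only, 14 with the number series as a term, 16 with DESeq2 and 0 without rats 2532 and 2572; the cause was not tested. It ran from 0 to 19 with 1 rat left out, and was 9 with either pseudocount, 9 with TMM, 11 with the mean filter, 6 with the dissection score and 12 with edgeR. Apart from edgeR, DESeq2 and the fit without rat 2532, shares of all genes called in these fits are not given here.

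Some changes reversed sign. Hsp90aa1 for LPS in CA1, 0.05 with all libraries, was -0.27 with the number series, -0.32 with edgeR, -0.32 with DESeq2 and from -0.16 to 0.38 with 1 rat left out. With the number series, age changes in DG were -0.014 in place of 0.31 for Hspb1, -0.031 in place of 0.029 for Hspd1 and -0.0082 in place of 0.042 for Dnaja1; Hspd1 ran from -0.015 to 0.077 with 1 rat left out. Hsph1 for LPS against aged in DG, 0.017 with all libraries, was -0.0017 with the number series, -0.0082 with the dissection score and from -0.0015 to 0.046 with 1 rat left out. Correlations also reversed. Within the rats numbered from 24, Hsph1 had 0.081 with Hsp90aa1 in CA1, 0.098 with Hsp90aa1 in DG, -0.25 with Dnajb1 in DG and 0.53 with Hspa8 in DG, and the CA1 with DG values were -0.64 for Hsp90aa1 and -0.63 for Hspb1. Within those from 25, Hsph1 had 0.034 with Dnajb1 in CA1, 0.15 with Hspa5 in CA1, -0.077 with Dnajb1 in DG and 0.49 between CA1 and DG. Without the 2 farthest rats it had 0.43 with Hspa5 in CA1, -0.18 with Dnajb1 in DG, 0.17 with Hspa8 in DG and 0.14 between CA1 and DG.

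Rats numbered from 27 include no aged rat, and those from 24 hold 1 young vehicle rat, so number and group are in part confounded. Depth limits low genes such as Hspb2.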
